A study of Micropterus salmoides with 45 samples.

Results

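The data are miRNA levels in the liver of largemouth bass (Micropterus salmoides) that stayed at normal oxygen for 24 h. They come from the control group of an acute hypoxia study, chosen by the group label. The control holds 15 of the study's 45 libraries, 3 at each of 0, 4, 8, 12 and 24 h. Fish 6 months old were spread over 9 closed circulation tanks at 20 °C, 30 fish to a tank and 3 tanks to an oxygen level. Control water held 7.0 ± 0.2 mg/L dissolved oxygen. The other 2 levels, moderate (3.0 ± 0.2 mg/L) and severe hypoxia (1.2 ± 0.2 mg/L), were reached with nitrogen within 2 h, and that point is 0 h. All fish were fasted before and during the experiment and anaesthetised with the fish anaesthetic MS-222 for sampling, and small RNA of 15 to 35 nt was sequenced on an Illumina HiSeq instrument. Species and oxygen levels are those of the sample labels and the series title, while the series' design text names common carp and temperature groups, a conflict that could not be settled here. The labels do not tie libraries to tanks or say how many fish went into one, and they give no clock time or lighting, so a p-value here reflects spread among libraries alone, which may be technical. Hours after the start, hours without food, time of day and handling run together in these fish and cannot be told apart.

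A miRNA gene is transcribed as a hairpin, which is cut into a short duplex with a 5p and a 3p arm. 1 of the arms, or both, is loaded into an Argonaute protein and guides it to messenger RNAs that pair with the arm's seed, which lowers their translation and stability. In vertebrate liver the best known member is miR-122, made almost only in hepatocytes, while miR-192, miR-22, miR-26a, miR-148 and the let-7 family are also abundant. Rhythms of feeding and the clock act on part of the liver's miRNAs in mammals.

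The deposited values are taken as rpm, reads scaled to a common total for every library, and the sources used here do not say which reads make up that total. There are 266 named miRNAs, 139 5p and 127 3p arms, of which 219 were above 0 in all 15 control libraries and 64 had a control mean of at least 1000 rpm. The spacing of low values puts the depth of a control library at 1.01 to 5.57 megareads, and 2 of the 24 h libraries were the shallowest (1.01 and 1.09 megareads). The control held 1211 triplets above 0, and in 1031 of them (85.1%) 1 library equalled the average of its partners, while 121 (9.99%) repeated a single value. Such averaged or repeated values were left out of tests and of means of single miRNAs, so that n is 2 for most groups. The values printed per library below include them. So do the sums over lists, families or all listed miRNAs, which use all 3 libraries (n = 3). The SDs of those sums may therefore be too small. The rule behind this replacement is not known, and the standard errors may be too small for that reason. Counting error at these depths is larger for low miRNAs, and rpm under about 10 rests on few reads.

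The summed level of all listed miRNAs was lowest at 24 h. It was 648191, 632113 and 612522 rpm (0 h), 739872, 756429 and 763808 rpm (4 h) and 778736, 760957 and 848065 rpm (8 h). At 12 h it stood at 801943, 774773 and 797894 rpm and at 24 h at 340215, 300084 and 359347 rpm. All libraries of 4, 8 and 12 h lay above those of 0 h, and all of 24 h lay below. The 24 h mean was 52.8% of the 0 h mean, so that listed miRNA made up 33.3% of the reads behind the rpm against 63.1%. What the rest held is not given here. A fall of like size was seen in moderate hypoxia, where the 24 h total was 55.2% of 0 h. In severe hypoxia the 24 h total was 94.1% of 0 h, and the libraries overlapped. They were at 590085, 574806 and 535892 rpm (0 h) and 539699, 536150 and 524255 rpm (24 h). As the listed total differed between hours, each comparison of miRNA levels was tested as deposited and as a share of the listed total. A miRNA is said to have risen or fallen only where both scales passed the test in 1 direction, unless a scale is named. Where no scale is named, a log2 difference of a miRNA, with its SE and adjusted p, is in share. It is then not the change in the rpm values printed beside it.

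**Figure D1:**
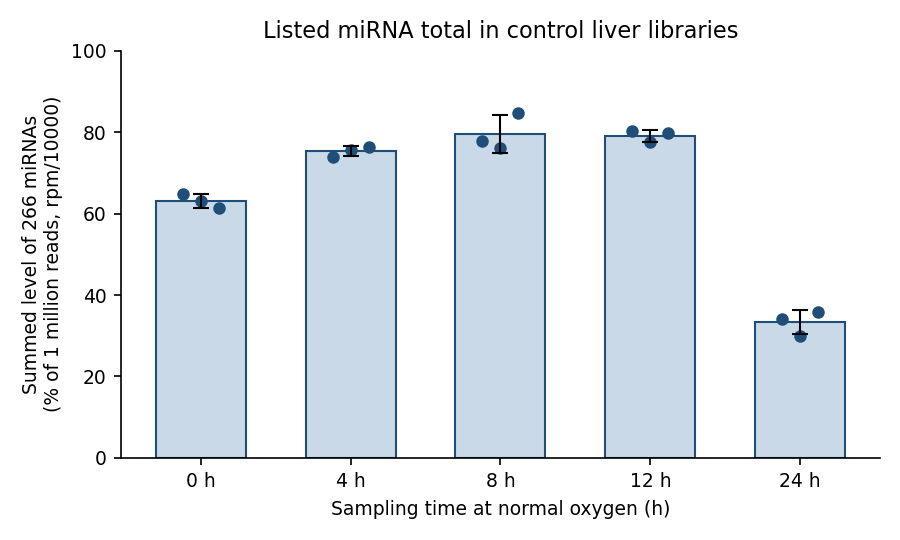
Summed level of the 266 listed miRNAs in each control library, as percent of the total behind the rpm (y axis), by sampling time in hours (x axis, evenly spaced). Points are libraries, bars are means of 3 and error bars are SDs; the 3 libraries of 24 h lie between 30.0% and 35.9%, below all the others.

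Most of the listed total came from few miRNAs at every hour. miR-26a-5p, which restrains cell-cycle genes in mammals, ranked 1 at 0, 4, 8 and 24 h and 2 at 12 h. miR-192-5p, a miRNA of liver and gut epithelium, ranked 1 at 12 h, and miR-181a-5p ranked 2 or 3 throughout. The hepatocyte miRNA miR-122-5p ranked 16, 21, 16, 39 and 10 at 0, 4, 8, 12 and 24 h, so it did not lead at any hour. Whether these levels meet the liver label was not tested. The 10 most abundant together held 61.6% ± 0.970 of the listed total at 0 h and 55.3% ± 1.91 at 24 h (n = 3, SD). Markers of muscle summed to at most 0.0067% and those of pancreas to at most 0.0819% of the listed total in any control library, those of neurons to 0.386 to 0.774% and those of erythrocytes to 0.207 to 0.765%. The erythrocyte sum holds only the 2 arms of miR-144, since miR-451 and miR-486 are not among the listed miRNAs. The muscle sum likewise lacks miR-206 and miR-208, so neither sum measures the content of that tissue. Within the lists, miR-31-5p (epithelium) was listed at 0 at every hour and miR-124-3p (neurons) at 0, 4 and 8 h.

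Over the 5 control hours, 163 of 208 tested miRNAs changed as deposited (78.4%) by limma's moderated F-test with Benjamini-Hochberg adjustment, and 120 changed as a share of the listed total (57.7%). On both scales 107 were called (51.4%). Without the 24 h libraries the calls were 102 and 74. With standard errors widened 2.5 times they were 9 and 0, the latter with 12 at an unadjusted p under 0.05. As deposited, 147 of the 208 had their lowest hour mean at 24 h, while as a share 84 had their highest there. The smallest ranges in share among miRNAs of at least 100 rpm belonged to miR-25-3p, miR-27d-3p, miR-26b-5p, miR-2184-5p, miR-29b-3p, miR-181b-5p, miR-27b-5p and miR-130b-3p. miR-25-3p, related to the miR-92 family, kept hour means of 0.611%, 0.583%, 0.538%, 0.525% and 0.583% of the listed total.

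The leading miRNA itself lost share. miR-26a-5p was at 16.4%, 16.3% and 17.1% of the listed total at 0 h, 10.3%, 10.9% and 10.2% at 12 h and 8.86%, 8.96% and 9.30% at 24 h. The 24 h libraries lay below all of 0 h, and the difference was log2 -0.84, SE 0.15, adjusted p = 0.000188 as a share and log2 -1.80, SE 0.20, adjusted p = 4.86e-07 as deposited. At 12 h it fell as a share (log2 -0.63, SE 0.15, adjusted p = 0.00459) and was not called as deposited (adjusted p = 0.204). Of the other most abundant miRNAs, miR-192-5p was at 11.3% and 8.04% at 0 and 24 h (adjusted p = 0.512), and miR-22a-3p at 5.63% and 6.79% (adjusted p = 0.340). Neither passed the test in share over the 5 hours (adjusted p = 0.834 and adjusted p = 0.134). miR-181a-5p, known from lymphocyte development, went from 8.46% at 0 h to 11.3% at 8 h and 7.15% at 24 h (over time adjusted p = 0.0130), with no single hour called against 0 h in share.

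**Figure D2:**
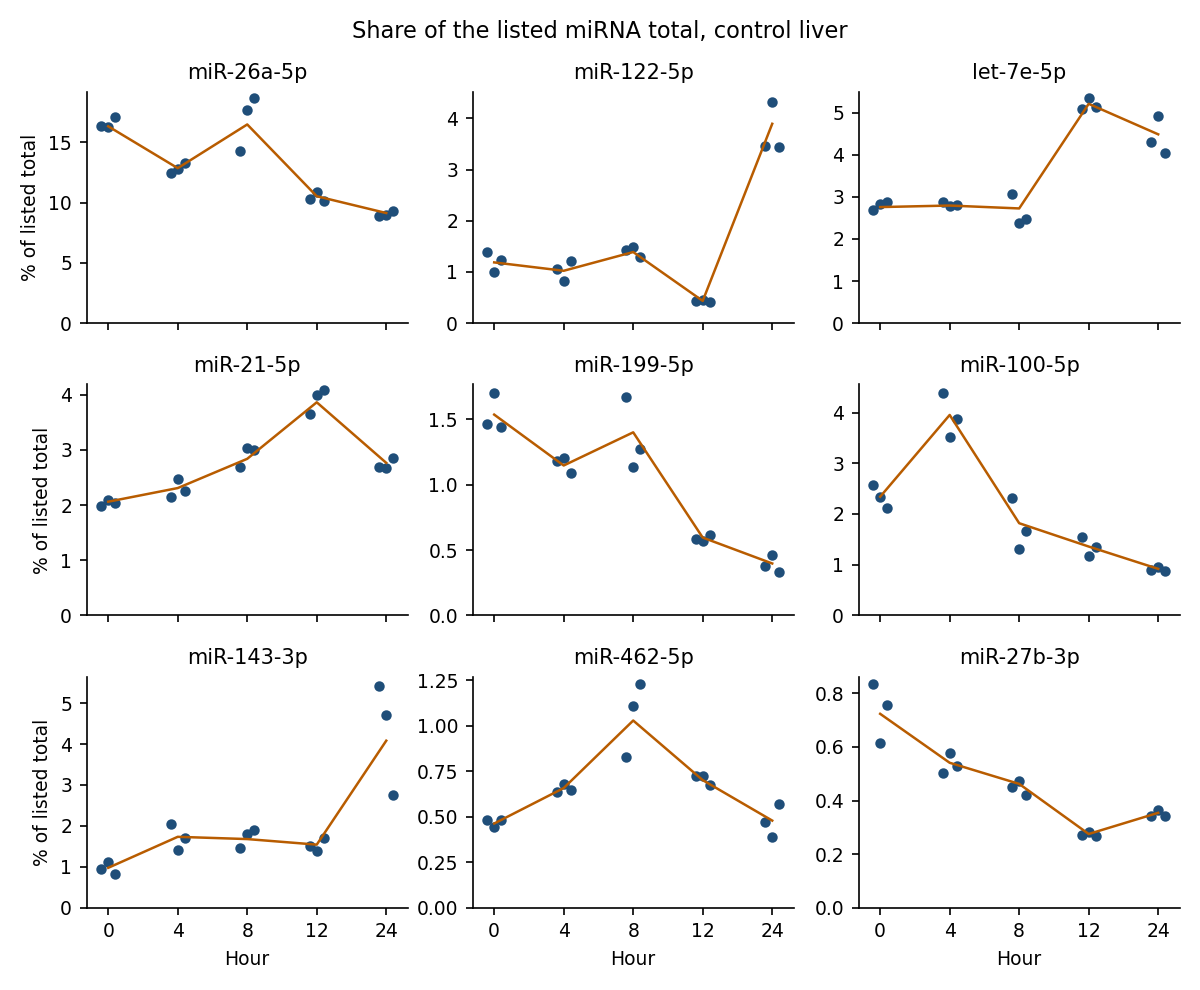
Share of the listed miRNA total in percent (y axes from 0) for 9 miRNAs in each control library, by hour (x axis, evenly spaced). Points are the 3 libraries of an hour and lines join the means of measured values; miR-26a-5p, miR-199-5p and miR-27b-3p are lowest at 12 or 24 h, let-7e-5p and miR-21-5p highest at 12 h, and miR-122-5p and miR-143-3p highest at 24 h.

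At 4 h few miRNAs differed from 0 h. As deposited 8 of 218 were higher (3.67%) and 2 lower (0.917%), so that 4.59% were called. In share 2 were higher (0.917%) and 3 lower (1.38%), which is 2.29%, and 4 were called on both scales (1.83%). The 3 values of an hour did not overlap with those of 0 h for 69.3% of miRNAs as deposited and 56.9% in share, so that a lack of overlap is common in these files. On both scales miR-24-3p and miR-200b-3p rose and miR-126b-3p and miR-20b-5p fell. For miR-20b-5p, either both group means were under 10 rpm or the values overlapped with 0 h, so its fall is less certain. miR-24-3p, which lies in clusters with miR-23 and miR-27, was at 48.9, 59.0 and 38.8 rpm (0 h) and 169, 107 and 138 rpm (4 h). The groups did not overlap (log2 1.22, SE 0.22, adjusted p = 0.00241 in share), and the call in share was lost without 0 h library 3 or 4 h library 1 (adjusted p up to 0.106). miR-200b-3p, a keeper of epithelial identity, was at 121, 118 and 125 rpm and then 266, 267 and 268 rpm. It was higher in all 4 h libraries (log2 0.86, SE 0.21, adjusted p = 0.0304), and the call in share was lost without 0 h library 2 or 3 or 4 h library 1 or 3 (adjusted p up to 0.141). As deposited it was lost without 0 h library 3 or 4 h library 3 (adjusted p up to 0.0780). Of these rises only miR-24-3p was called under all 4 scalings tried, which are rpm, share, median of ratios and share without the 5 most abundant. The count at 4 h as deposited was 3 without 0 h library 1, 2 without 0 h library 3 and 2 without 4 h library 3. In share it was 3, 1, 2, 8 and 3 without 0 h library 1, 0 h library 3 and 4 h libraries 1, 2 and 3.

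At 8 h, 25 of 218 were higher (11.5%) and 4 lower (1.83%) as deposited, 13.3% in all, and 8 were higher (3.67%) and 5 lower (2.29%) in share, 5.96% in all. Groups did not overlap for 71.1% as deposited and 54.1% in share. On both scales 8 rose (3.67%) and 4 fell (1.83%), 5.5% in all, and all 12 were called under the 4 scalings. The widest rise was that of miR-204-5p, best known from eye and kidney, from 26.1, 31.0 and 21.1 rpm to 151, 122 and 181 rpm (log2 2.14, SE 0.35, adjusted p = 0.00159). It was back at 39.7 rpm at 12 h and 16.0 rpm at 24 h, neither called against 0 h. Both arms of miR-460, a miRNA described mainly outside mammals, rose together. miR-460-3p went from 142, 197 and 88.1 rpm to 511, 569 and 626 rpm (log2 1.71, SE 0.35, adjusted p = 0.00441) and miR-460-5p from 86.3, 123 and 50.0 rpm to 338, 225 and 282 rpm (log2 1.50, SE 0.41, adjusted p = 0.0352). The groups did not overlap, but 0 h library 3 was the lowest for both arms, and without it neither was called in share (adjusted p up to 0.0983 and 0.396). The 5p arm also lost its call in share without 8 h library 1 or 2, and as deposited without 0 h library 3 or 8 h library 1 (adjusted p up to 0.142).

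miR-462-5p, a member of a fish cluster that is induced by hypoxia and viral infection, rose at 8 h without any lowering of oxygen. It was at 3127, 2806 and 2967 rpm (0 h), 4720.0, 5129 and 4925 rpm (4 h), 6466, 8439 and 10412 rpm (8 h), 5822, 5612 and 5402 rpm (12 h) and 1607, 1165 and 2049 rpm (24 h). The 8 h libraries were the highest of the day and the 24 h libraries the lowest. At 8 h the difference was log2 1.47, SE 0.35, adjusted p = 0.00977 as deposited and log2 1.13, SE 0.32, adjusted p = 0.0458 in share, and the call in share was lost without any of the 0 h libraries or without 8 h library 2 or 3 (adjusted p up to 0.304). As deposited it was lost without 8 h library 3 (adjusted p = 0.0982). At 24 h it was lower as deposited (log2 -0.94, adjusted p = 0.0330) and not called in share (log2 0.02, adjusted p = 0.959). Its cluster partner miR-731-5p was listed at 0 in all libraries of 0 to 12 h and at 120.5 rpm in all 3 libraries at 24 h.

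The other rises at 8 h were miR-24-3p (log2 0.89 in share), miR-455-3p, miR-101b-5p and miR-125c-5p, the last lost in share without 0 h library 2 or 3 or 8 h library 3 (adjusted p up to 0.189). miR-101b-5p was at 1692, 1587 and 1482 rpm (0 h) and 3126, 3446 and 3766 rpm (8 h) (log2 0.75, SE 0.16, adjusted p = 0.00517), and by 24 h at 782 rpm. Falls at 8 h were miR-181a-3p, miR-16c-5p, miR-216b-5p and miR-20b-5p. The last again had group means under 10 rpm or values that overlapped with 0 h. miR-216b-5p, a miRNA of pancreatic acinar cells, was at 174, 187 and 181 rpm and then 64.3, 57.9 and 70.7 rpm (log2 -1.81, SE 0.38, adjusted p = 0.00517; 0.0505 in share and 0.0781 as deposited without 8 h library 2). It was at 192, 152 and 172 rpm again at 12 h. The summed pancreas markers, which include miR-216b-5p itself, were at 0.0794% ± 0.0034 of the listed total at 0 h, 0.0268% ± 0.0022 at 8 h and 0.0621% ± 0.0073 at 12 h (n = 3, SD). The part of carried-over pancreas in these values was not tested. miR-16c-5p stood at 12.1 rpm in all 3 libraries (0 h) and 4.50, 2.47 and 3.49 rpm (8 h) (log2 -1.87, SE 0.49, adjusted p = 0.0352), with 1 measured value at 0 h and with the call lost in share without 0 h library 3 or 8 h library 2 (adjusted p up to 0.200). The count at 8 h as deposited was 13 without 0 h library 3 and 13 without 8 h library 3, and in share 4, 7 and 8 without 0 h library 3, 8 h library 2 and 8 h library 3.

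At 12 h the composition had shifted further. As deposited 57 of 217 were higher (26.3%) and 20 lower (9.22%), 35.5% in all, and in share 29 were higher (13.4%) and 35 lower (16.1%), 29.5% in all. Groups did not overlap for 72.8% as deposited and 70% in share. On both scales 29 rose (13.4%) and 20 fell (9.22%), 22.6% in all, and 20 and 20 were called in the same direction under all 4 scalings. The split of calls moved with the scaling, to 32 higher and 35 lower with the median of ratios and 21 and 43 when the 5 most abundant were left out of the total. Without 12 h library 3 the count as deposited was 45, and in share it was 35, with 40 without 12 h library 2 or 0 h library 1.

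The let-7 family, which holds back growth genes and marks differentiated cells, held more of the listed total at 12 h. Its 9 listed 5p arms summed to 10.7% ± 0.785 of the listed total at 0 h, 9.97% ± 0.736 at 8 h, 17.1% ± 0.259 at 12 h and 13.9% ± 0.758 at 24 h (n = 3, SD). Of 17 tested members 10 were higher at 12 h as deposited and 7 in share, none lower, where 26.3% and 13.4% of all tested miRNAs were higher. Without the 5 most abundant in the total, 6 were higher and 1 lower. let-7g-5p was at 4547, 4469.6 and 4392 rpm (0 h) and 11877, 12645 and 12216 rpm (12 h) (log2 1.12, SE 0.15, adjusted p = 4.96e-05). let-7e-5p was at 17367, 17931 and 17649 and 40739.6, 41413 and 41076 rpm (log2 0.92, SE 0.22, adjusted p = 0.00491). The groups were far apart for both, and let-7e-5p was still higher in share at 24 h (log2 0.70, SE 0.22, adjusted p = 0.0155) though at 14664 rpm as deposited. let-7a-5p, the most abundant member, went from 5.77% to 8.40% (log2 0.55, SE 0.18, adjusted p = 0.0312) and let-7f-3p rose by log2 1.21 in share. Members of the family differ by few bases, and the sources used here do not say how reads that match several were assigned.

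miR-21-5p, which goes up with injury, inflammation and growth in many tissues, rose to a peak at 12 h. It was at 12826, 13175 and 12477 rpm (0 h), 20884, 23134 and 25385 rpm (8 h), 29201, 30881 and 32560.3 rpm (12 h) and 9141, 8012 and 10271 rpm (24 h). The 12 h libraries stood above all others (log2 0.90, SE 0.22, adjusted p = 0.00491), and at 24 h the level was 2.76% of the listed total against 2.06% at 0 h (adjusted p = 0.126). miR-460-5p and miR-460-3p were still raised at 12 h, at 358, 411 and 306 rpm and 524, 578 and 469 rpm (log2 1.83 and 1.64 in share), and were at 60.6 and 141 rpm at 24 h. The call of miR-460-5p in share at 12 h was lost without 0 h library 3 (adjusted p = 0.0627). miR-737-5p, a fish miRNA, went from 68.3, 90.0 and 46.5 rpm to 239, 238 and 240.0 rpm (log2 1.54, SE 0.31, adjusted p = 0.00157). miR-107b-3p, of a family tied to insulin sensitivity in mice, went from 24.5, 23.9 and 23.2 to 71.9, 73.4 and 70.5 rpm (log2 1.25, SE 0.37, adjusted p = 0.0193; adjusted p up to 0.0828 without 0 h library 1 or 3 or 12 h library 2 or 3). miR-19b-3p, the growth-promoting member of the miR-17 to miR-92 cluster, rose at 12 h and stayed up, at 1791, 1460.1 and 1625, 4258, 4033 and 3807 and 2729, 2604 and 2480.0 rpm at 0, 12 and 24 h (log2 0.99 and 1.56 in share).

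miR-122-5p, the hepatocyte miRNA that supports lipid metabolism, had its lowest level at 12 h and its highest at 24 h. It was at 8959, 6263 and 7611 rpm (0 h), 7782, 6242 and 9322 rpm (4 h), 11135, 11273 and 10998 rpm (8 h), 3411, 3505 and 3317 rpm (12 h) and 11805, 12968 and 12387 rpm (24 h). All 12 h libraries were below all others and all 24 h libraries above. The fall at 12 h was log2 -1.43, SE 0.28, adjusted p = 0.00131 in share, and adjusted p = 0.00693 as deposited, which became 0.0749 without 0 h library 1. At 24 h it was 3.90% of the listed total against 1.19% (log2 1.73, SE 0.28, adjusted p = 9.43e-05), while as deposited the difference missed the threshold (log2 0.72, SE 0.30, adjusted p = 0.0563). The other arm, miR-122-3p, went the opposite way at 24 h, from 158, 116 and 137 rpm to 36.6, 34.5 and 38.6 rpm (log2 -1.87, SE 0.28, adjusted p = 1.50e-05 as deposited; log2 -0.92 in share, adjusted p = 0.00675, 0.0824 without 0 h library 1).

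miR-27b-3p, miR-190a-3p and miR-133a-3p were lower at both 12 h and 24 h. miR-27b-3p, which acts on lipid genes in mammalian liver, was at 5404, 3879 and 4641 rpm (0 h), 2165, 2200.3 and 2129 rpm (12 h) and 1165, 1095 and 1235 rpm (24 h). It was below 0 h in all these libraries (log2 -1.38 and -1.01 in share, adjusted p = 4.96e-05 and 0.000261). miR-190a-3p was at 20.7, 26.4 and 23.6 rpm, then 12.5, 13.0 and 12.1 rpm and 1.91, 1.97 and 1.84 rpm (log2 -2.46, SE 0.28, adjusted p = 1.44e-06 at 24 h). miR-133a-3p, a muscle miRNA, was at 37.9, 40.6 and 35.2 rpm (0 h) and 8.09, 7.89 and 7.99 rpm (24 h) (log2 -1.25, SE 0.38, adjusted p = 0.0122). Another muscle miRNA, miR-1-3p, went the other way and was called higher at 24 h under all 4 scalings. The listed muscle markers summed to 39.7 rpm at 0 h and 11.7 rpm at 24 h. Of these sums, miR-133a-3p and miR-133b-3p held 38.3 and 7.99 rpm. miR-1-3p was thus at a few rpm at most, which rests on few reads. Of 3 muscle markers tested at 24 h, 1 was higher and 1 lower on either scale. Among all tested miRNAs 27.2% were higher and 14.7% lower in share, and 6.91% and 38.2% as deposited. miR-216a-5p, a pancreatic miRNA, was called lower on both scales at 12 h but at 24 h as deposited only (adjusted p = 0.0668 in share). Its 12 h level was 5.39 against 16.1 rpm (log2 -1.74, SE 0.48, adjusted p = 0.0123; adjusted p up to 0.109 without 0 h library 1 or 12 h library 3).

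**Figure D3:**
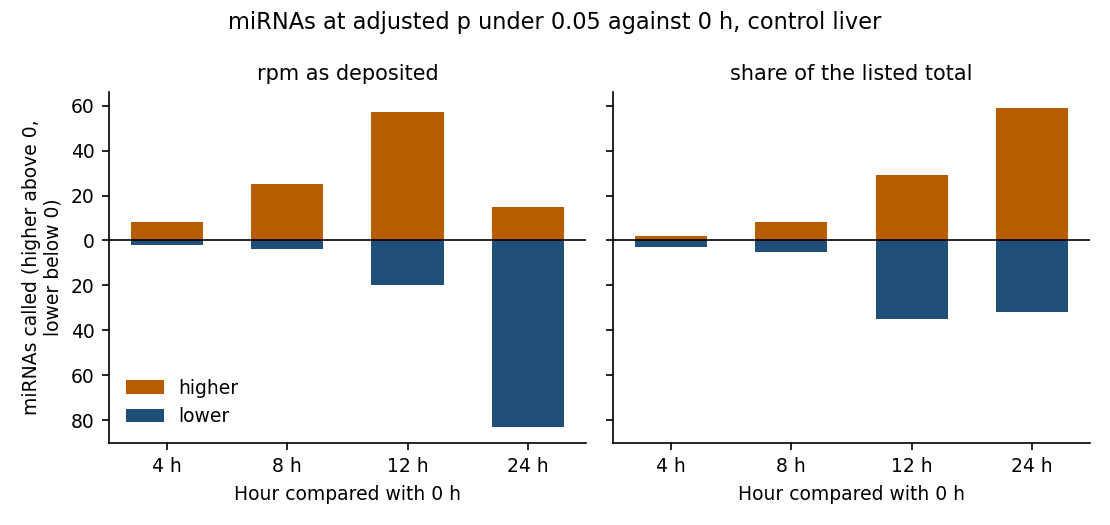
Number of miRNAs called higher (orange, above 0) or lower (blue, below 0) than at 0 h at adjusted p under 0.05, by hour (x axis), as deposited (left) and as a share of the listed total (right). As deposited the 24 h calls are 15 higher and 83 lower, and as a share they are 59 higher and 32 lower; all 4 comparisons share the 0 h libraries.

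At 24 h the balance of higher and lower calls depended on the scale. As deposited 15 of 217 were higher (6.91%) and 83 lower (38.2%), 45.2% in all, and in share 59 were higher (27.2%) and 32 lower (14.7%), 41.9% in all. Groups did not overlap for 73.3% as deposited and 73.7% in share. The median of all tested miRNAs was log2 -0.56 as deposited, 0.27 in share, 0.07 with the median of ratios (45 higher, 46 lower) and 0.03 without the 5 most abundant (40 and 50). The 15 rises (6.91%) and 32 falls (14.7%) that both scales share, 21.7% in all, were all called under the 4 scalings. With standard errors widened 2.5 times, 10 falls were left as deposited and 1 rise in share. The 10 were miR-125a-5p, miR-125b-5p, miR-126b-3p, miR-135c-5p, miR-190a-3p, miR-199-5p, miR-19c-3p, miR-26a-5p, miR-27b-3p and miR-338-3p, and the rise was miR-24-3p.

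The 5 largest rises in share at 24 h among miRNAs of at least 10 rpm were those of miR-153a-3p, miR-9-5p, miR-24-3p, miR-9-3p and miR-7a-5p. miR-153a-3p, a neuronal miRNA, was at 2.82, 2.09 and 2.46 rpm (0 h), 6.26, 6.89 and 5.62 rpm (12 h) and 14.5, 15.1 and 15.6 rpm (24 h) (log2 3.20, SE 0.36, adjusted p = 1.63e-06). The paralog miR-153b-3p did not share the rise, as the 2 together were at 27.8, 19.1 and 21.7 rpm at 0, 12 and 24 h. In rpm miR-153b-3p was thus lower at 24 h than at 0 h, while miR-153a-3p was higher. The sources used here do not say how reads that match both were assigned, so the rise of miR-153a-3p alone is uncertain. miR-9-5p, a regulator of neural progenitors, was at 21.6, 30.6 and 12.7 rpm, 71.6, 73.4 and 75.2 rpm and 154, 54.3 and 104 rpm (log2 3.13, SE 0.48, adjusted p = 4.30e-05). Its 3p arm was at 6.74, 5.02 and 8.45 rpm and 36.6, 15.8 and 26.2 rpm at 0 and 24 h (log2 2.73, SE 0.40, adjusted p = 4.12e-05). The 24 h values of miR-9 spread widely but lay above all of 0 h for both arms, while at 12 h the call of miR-9-5p in share was lost without 0 h library 3 or 12 h library 1 or 3 (adjusted p up to 0.253), and as deposited without 0 h library 3 (adjusted p = 0.0985). miR-138-5p, known from brain, was at 1.18, 1.26 and 2.11 rpm and then 6.39, 8.70 and 11.0 rpm (log2 2.90, SE 0.45, adjusted p = 5.39e-05). miR-7a-5p, a miRNA of pancreatic islets and pituitary, had 1 measured value of 6.41 rpm at 0 h and 11.9, 20.2 and 28.5 rpm at 24 h, and its call as deposited was lost without 24 h library 3 (adjusted p = 0.176).

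Of the neuron markers, 4 of 10 tested were higher in share at 24 h and none lower, where 27.2% and 14.7% of all tested miRNAs were (median log2 0.29 against 0.27). As deposited 3 were higher and 2 lower, where 6.91% and 38.2% of all were. Their sum was 0.441% ± 0.048 of the listed total at 0 h and 0.720% ± 0.049 at 24 h (n = 3, SD). Most of that sum was miR-128-3p, at 2661 and 2189 rpm, which many tissues make, while the brain's miR-124-3p was at 2.76 rpm in all 3 libraries at 24 h and listed at 0 at 0 h. The part of nerve tissue or of shallower 24 h libraries in these rises was not tested.

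miR-24-3p, the rise that held with widened standard errors, went from 48.9 rpm to 173, 184 and 195 rpm at 24 h. That was 6.75 times the 0 h value in share (log2 2.75, SE 0.22, adjusted p = 1.88e-08) and 3.78 times as deposited. Its other arm, miR-24-5p, fell at 24 h from 8.25 to 1.88 rpm (log2 -1.16 in share).

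The miR-99, miR-100 and miR-125 group, whose genes lie beside let-7 genes in vertebrates and whose miR-99 and miR-100 act on the mTOR pathway, was low at 24 h. Its 8 listed members summed to 3.90% ± 0.226 of the listed total at 0 h, 5.83% ± 0.428 at 4 h, 3.61% ± 0.518 at 8 h, 2.49% ± 0.215 at 12 h and 1.58% ± 0.113 at 24 h (n = 3, SD). At 24 h, 5 of 8 were lower and 1 higher in share, and 6 lower as deposited, where 14.7% and 38.2% of all tested miRNAs were lower. The count of 5 lower was the same with the median of ratios and without the 5 most abundant. miR-100-5p was at 16610.2, 14789 and 12968 rpm (0 h), 32404, 26652 and 29528 rpm (4 h) and 3018, 2862 and 3173 rpm (24 h). The 4 h libraries were the highest, with no call (adjusted p = 0.0519 as deposited), and the 24 h libraries the lowest (log2 -1.34, SE 0.28, adjusted p = 0.000620). miR-99-5p fell from 3496, 3228 and 2961 rpm to 671, 683 and 659 rpm (log2 -1.32, SE 0.27, adjusted p = 0.000620) and miR-125b-5p from 4408, 4479 and 4337 rpm to 1122, 1148 and 1097 rpm (log2 -1.05, SE 0.19, adjusted p = 0.000188).

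Markers of stromal cells did not move as a block. miR-143-3p, of smooth muscle and fibroblasts, was at 6097, 7149 and 5044 rpm (0 h) and 18417, 14148 and 9879 rpm (24 h) (log2 2.00, SE 0.33, adjusted p = 9.43e-05). The 24 h libraries spread widely but were all above 0 h. miR-199-5p, a miRNA of mesenchymal cells such as liver stellate cells, was at 9487, 10729 and 8839 rpm (0 h), 12969.7, 8622 and 10796 rpm (8 h), 4683, 4431 and 4934 rpm (12 h) and 1290.0, 1393 and 1187 rpm (24 h). It fell at 12 h (log2 -1.36 in share) and 24 h (log2 -1.97, SE 0.21, adjusted p = 6.72e-07). The opposite arm miR-199-3p was at 2.57% of the listed total at 0 h and 3.87% at 24 h and was not called (adjusted p = 0.369). In whole liver, fewer cells of a type and less RNA per cell cannot be told apart. Of 8 stromal markers tested at 24 h, 1 was higher and 1 lower in share, where 27.2% and 14.7% of all tested miRNAs were. As deposited 1 was higher and 5 lower, where 6.91% and 38.2% of all were.

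Endothelial markers were low at 12 and 24 h. Their sum was 7.10% ± 0.438 of the listed total at 0 h, 4.34% ± 0.381 at 4 h and 5.99% ± 0.544 at 8 h. It was 2.98% ± 0.121 at 12 h and 2.94% ± 0.0958 at 24 h (n = 3, SD), with miR-221-5p listed at 0 at 8 and 12 h. At 12 h, 3 of 7 tested were lower in share, where 16.1% of all tested miRNAs were, and 1 as deposited, where 9.22% were. At 24 h, 4 of 8 tested were lower and none higher in share (median log2 -0.78 against 0.27 for all tested), where 14.7% of all tested miRNAs were lower. As deposited 7 were lower, where 38.2% of all were, and 5 with either of the other 2 scalings. The 4 lower in share were all arms of miR-126, and miR-126a-5p and miR-126b-5p were within 1% of each other in 10 of 15 control libraries, so that the count is not of independent miRNAs. miR-126a-3p, the endothelial miRNA that sustains vessel integrity, was at 17170.4, 17123 and 17111 rpm (0 h), 9823, 10536 and 9109.9 rpm (12 h) and 3576, 3342 and 3811 rpm (24 h) (log2 -1.32, SE 0.29, adjusted p = 0.00170). miR-222a-3p was at 2788, 1937 and 2362 rpm and 739.8, 516 and 964 rpm at 0 and 24 h and was lower as deposited only (adjusted p = 0.000276, in share 0.0771). The paralog miR-126b-3p jumped between levels instead of drifting. It was at 9956, 12132 and 7779.8 rpm (0 h), 7.14, 20.6 and 9.16 rpm (4 h), 13111, 17892 and 22673 rpm (8 h), 65.3 rpm in all 3 libraries (12 h) and 7.24, 6.37 and 5.51 rpm (24 h). The 4, 12 and 24 h groups lay far below the 0 and 8 h groups with no overlap. Both 3p arms together held 4.29% ± 0.297 of the listed total at 0 h, 1.51% ± 0.0815 at 4 h, 3.93% ± 0.455 at 8 h, 1.25% ± 0.110 at 12 h and 1.08% ± 0.0338 at 24 h (n = 3, SD). Reads of these paralogs can be split in more than 1 way, so the level of miR-126b-3p is uncertain.

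**Figure D4:**
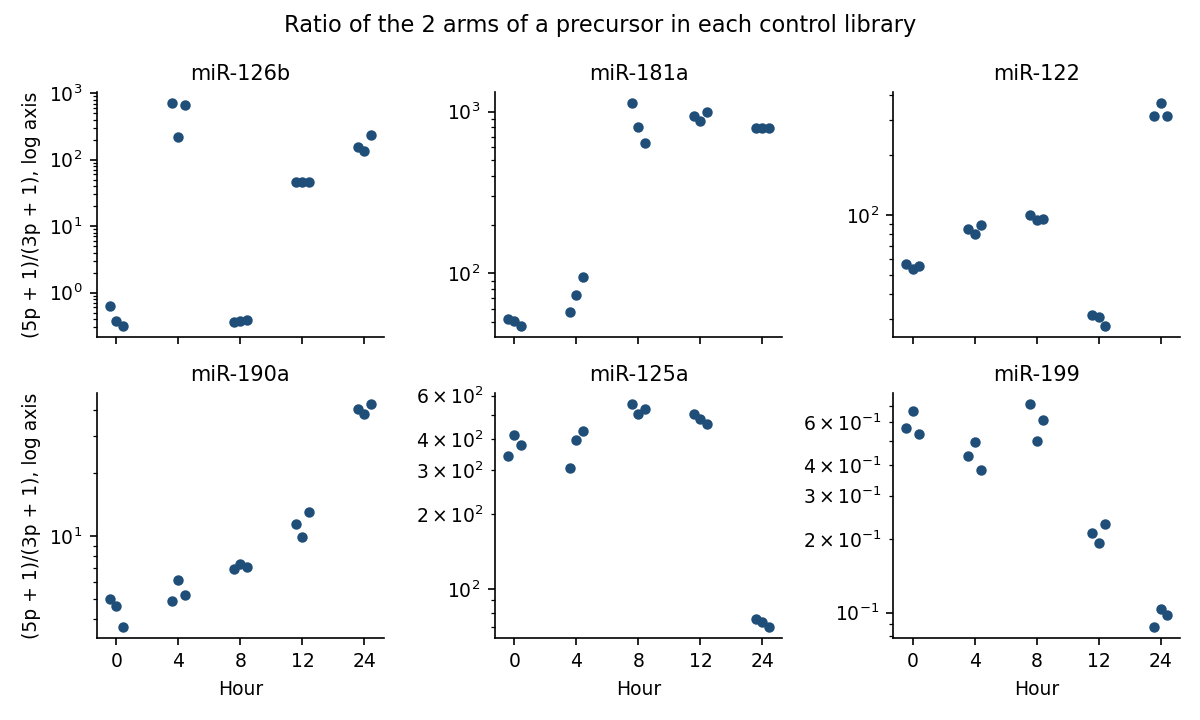
Ratio of 5p to 3p arm, each with 1 rpm added, in each control library (y axes logarithmic) by hour (x axis, evenly spaced) for 6 precursors. Ratios that rest on averaged or repeated values are plotted too. Points are libraries; the ratio of miR-126b crosses 1 between hours, that of miR-181a is higher from 8 h on, that of miR-190a is highest and those of miR-125a and miR-199 lowest at 24 h, and that of miR-122 is lowest at 12 h and highest at 24 h.

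The balance of the arms of a precursor needs no scaling between libraries. A ratio entered the test only where both arms were measured, which left 1 library at some hours for some precursors. The log2 ratio of 5p to 3p changed over the control hours for 30 of 59 tested precursors (50.8%), 16 without 8 h library 1, and 3 with widened standard errors. Those 3 were miR-126b, miR-181a and miR-190a. For miR-181a the 5p arm was 52.1, 50.7 and 47.6 times the 3p arm at 0 h, 57.8, 73.4 and 94.5 at 4 h, 1127, 799 and 641 at 8 h and 789, 790.0 and 789 at 24 h (adjusted p = 8.70e-08). The step lay between 4 and 8 h and was carried by the 3p arm, at 1147, 998 and 848 rpm (4 h), 73.6, 114 and 155 rpm (8 h) and 28.9, 25.6 and 32.1 rpm (24 h). For miR-190a the ratio was 4.99, 4.61 and 3.68 at 0 h and 40.5, 38.5 and 42.7 at 24 h (adjusted p = 1.84e-06). Its 3p arm was under 10 rpm at 24 h, at the values given above, so that those ratios rest on few reads.

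miR-122 had its arms furthest apart at 24 h. The ratio was 56.4, 53.4 and 55.1 at 0 h, 100.4, 94.1 and 95.3 at 8 h, 31.5, 30.8 and 27.8 at 12 h and 314, 365 and 313 at 24 h (adjusted p = 0.000453). No deposited ratio of 12 or 24 h overlapped with those of another hour. Both arms of miR-122 were measured in only 1 library each at 8, 12 and 24 h, however, and the other ratios there rest on averaged or repeated values. The same holds for miR-125a at 0, 4 and 24 h and for miR-181a at 0 h. It also holds for miR-190a at 0 and 4 h, miR-199 at 24 h and miR-126b at 12 and 24 h. For miR-199 the ratio went from 0.568, 0.664 and 0.538 at 0 h to 0.0875, 0.103 and 0.0973 at 24 h (adjusted p = 1.79e-05), and for miR-125a from 343, 418 and 380.4 to 75.3, 73.4 and 70.3 (adjusted p = 0.00614), whose 3p arm is under 10 rpm. Of the 30 precursors, the arm that was the more abundant changed only for miR-126b. Precursors with an arm listed at 0 throughout a control hour were not tested. Among these, the more abundant arm of miR-93 and of miR-221 also differed between 0 and 4 h.

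Other groups were described by their counts at 24 h in share. Of 11 hepatocyte and liver-enriched members 4 were higher and 1 lower, of 25 circadian-associated 9 and 2, of 7 in the miR-30 family 3 and 0, of 14 in the miR-17 to miR-92 cluster 5 and 3, and of 23 tied to fasting, lipid and glucose metabolism 3 and 4. As deposited the same lists had 1 and 5, 1 and 8, 0 and 4, 2 and 6, and 0 and 13. With the median of ratios they had 3 and 3, 7 and 3, 2 and 1, 5 and 5, and 2 and 5, where 45 and 46 of all 217 tested miRNAs were called. In share 27.2% of all tested miRNAs were higher and 14.7% lower, and as deposited 6.91% and 38.2%. Which direction held more calls changed with the scale for the hepatocyte, circadian, miR-30 and miR-17 to miR-92 lists. These lists share members, so their counts are not independent. The circadian-associated list includes miR-30, miR-122, miR-192, miR-194 and miR-29, which the miR-30, hepatocyte or metabolism lists also hold. The metabolism list had more lower than higher calls under each of the 4 scalings, with a median of log2 -0.17 in share against 0.27 for all tested, and of -1.03 as deposited against -0.56. Its portion of lower calls in share (4 of 23) and with the median of ratios (5 of 23) was near that of all tested. Without the 5 most abundant it had 2 higher and 9 lower, where 40 and 50 of all 217 were. miR-30e-5p, of a family abundant in liver, was at 3.01% of the listed total at 0 h and 4.89% at 24 h (log2 0.70, SE 0.18, adjusted p = 0.00413), and at 18714 and 16038 rpm (adjusted p = 0.408). Among circadian-associated miRNAs, miR-219-5p, a clock-regulated miRNA of the mouse brain, stayed under 4 rpm in every control library, as did the 0 to 12 h means of miR-132-5p.

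miR-210, the miRNA most tied to hypoxia through the hypoxia-inducible factor, also moved at normal oxygen. miR-210-5p was at 222, 188 and 205 rpm (0 h), 136, 111 and 161 rpm (12 h) and 52.8, 40.5 and 65.2 rpm (24 h). It was lower at 24 h as deposited (log2 -1.97, SE 0.35, adjusted p = 0.000109) and in share (adjusted p = 0.0154, 0.120 at most without 0 h library 1 or 24 h library 2). miR-210-3p was at 189.9, 229 and 151 rpm (0 h), 433, 245 and 339 rpm (4 h) and 94.2, 79.9 and 108 rpm (24 h). It was lower at 24 h as deposited (adjusted p = 0.0205, lost without 0 h library 2 or 24 h library 2), and not in share (log2 -0.08, adjusted p = 0.854).

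Some miRNAs were listed at 0 in every library of an hour and well above it in another, 13 of them with a mean of at least 10 rpm elsewhere. miR-15a-5p was listed at 0 at 0 h and at 464 rpm in all 3 libraries at 4 h. miR-221-5p was at 2099 rpm in all 3 libraries (0 h), 3269.9, 3099.6 and 2929 rpm (4 h) and 784 rpm in all 3 libraries (24 h) and was listed at 0 at 8 and 12 h. miR-150-5p, a lymphocyte miRNA, was at 124, 137 and 151 rpm at 4 h and listed at 0 at 24 h. Such groups were left out of the tests. The number above 0 was the same in all 3 libraries of each hour, at 243, 241, 244, 243 and 240. miR-142a-3p and miR-142b-3p had identical values in all 15 control libraries and are 1 measurement.

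The change from 0 to 24 h in control was set against the mean of the same change in moderate and severe hypoxia, to ask which changes differ from those under low oxygen. As deposited 46 of 195 differed (23.6%), 21 with a higher (10.8%) and 25 with a lower (12.8%) change in control. In share 47 differed (24.1%), 41 higher (21%) and 6 lower (3.08%). Both scales called 27 (13.8%), of which 21 were higher (10.8%) and 6 lower (3.08%). None passed on either scale when standard errors were widened, with 4 and 12 at an unadjusted p under 0.05. Without 0 h library 3 or 24 h library 2 the count as deposited was 27. Some of the falls at 24 h passed this test and others did not. miR-27b-3p changed by log2 -1.01 in control, 0.07 in moderate and -0.64 in severe hypoxia in share (difference log2 -0.73, SE 0.23, adjusted p = 0.0270). It was called lower under all 4 scalings, as was miR-126b-3p, while miR-126a-3p was called higher. The call of miR-126a-3p rests on moderate hypoxia, where it fell to a low level. In share, its change in control was a larger fall than in severe hypoxia. miR-26a-5p was called as deposited only (adjusted p = 0.0165, in share 0.109). miR-199-5p, miR-100-5p and miR-122-5p were called on neither scale. miR-199-5p changed by log2 -1.97 in control, -2.18 in moderate and -1.48 in severe hypoxia in share (difference log2 -0.13, SE 0.26, adjusted p = 0.727). miR-122-5p changed by log2 1.73, 3.24 and 0.08 (difference log2 0.06, SE 0.35, adjusted p = 0.938) with the hypoxia levels far apart, which was not tested. miR-100-5p changed by -1.34, -2.52 and -1.72 (difference log2 0.78, SE 0.34, adjusted p = 0.101).

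**Figure D5:**
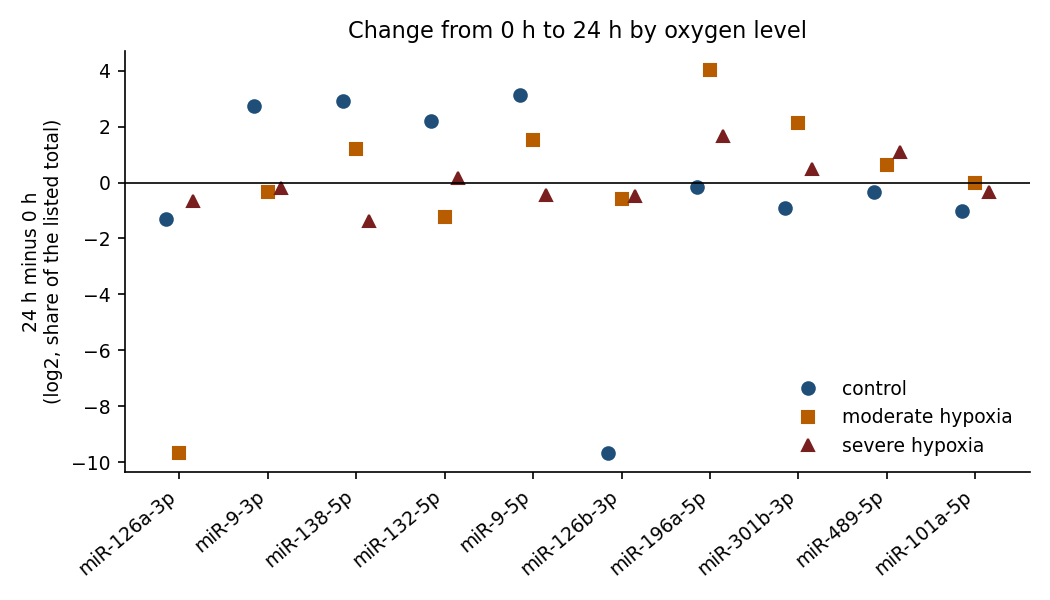
Change from 0 h to 24 h on the log2 scale of share of the listed total (y axis) in control (circles), moderate hypoxia (squares) and severe hypoxia (triangles) for the 10 miRNAs (x axis) with the largest differences called on both scales. Points are fitted group differences; miR-9-3p and miR-9-5p lie above both hypoxia levels in control, and miR-126a-3p and miR-126b-3p each have 1 oxygen level near -10.

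Both arms of miR-9 were among the miRNAs that differed, while miR-153a-3p could not be tested in this comparison. miR-9-3p went from 6.74 to 26.2 rpm in control, 6.75 to 2.96 in moderate and 14.9 to 11.9 in severe hypoxia (log2 2.98, SE 0.49, adjusted p = 0.000173 in share). miR-9-5p went from 21.6 to 104, 14.8 to 24.7 and 31.0 to 21.3 rpm (log2 2.60, SE 0.59, adjusted p = 0.00215). The control group went up most in both arms. As deposited the call of miR-9-5p was lost without 0 h library 3 or 24 h library 1 (adjusted p up to 0.123). miR-24-3p changed by log2 2.75 in control and by 1.69 and 1.17 in hypoxia (log2 1.33, SE 0.27, adjusted p = 0.000994). The change of miR-24-3p was positive at every oxygen level and larger in control than the mean of the other 2.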

How the data were processed

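The deposited values were taken as rpm, made by the authors with 1 file per library; per the labels' protocols small RNA of 15 to 35 nt was sequenced, but the sources used here do not give the unit, its denominator, the aligner or the genome build. The unit rests on the size of the library totals and on low values spaced by 1 step per library. Each control library had an implied depth of 1.01 to 5.57 megareads from that step, a median of 93.0% of low values being whole steps; intervals were not computed from it.

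A value within 0.0101 rpm or 0.1% of the mean of the other 2 was set missing, 3 identical values were kept once, and groups at 0 in all 3 libraries were left out. Sums over lists, families and all listed miRNAs kept every deposited value. limma 3.58.1 in R 4.3.3 was fitted to log2(value + 1) over all 15 groups (45 libraries), leaving out miRNAs whose mean was under 1 rpm, as deposited and as a share of the listed total, with Benjamini-Hochberg adjustment over all tested miRNAs and a threshold of 0.05. Control hours were compared by an F-test, each later hour by a contrast with 0 h, and 24 h minus 0 h against the hypoxia mean. Fold changes are on the log2(value + 1) scale and understate changes of low miRNAs. The listed total was not tested. The fit was tested on simulated data.

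miRNAs named are the 10 most abundant, the widest ranges over time, the 5 largest rises and falls at each hour called on both scales, the 8 steadiest, up to 4 per list, the widest arm ratios, the largest differences from hypoxia, and the arms of miR-122 and miR-210. The members listed at 0 and let-7f-3p, miR-1-3p, miR-19c-3p, miR-24-5p, miR-101b-5p, miR-125a-5p, miR-128-3p, miR-135c-5p, miR-153b-3p, miR-338-3p and miR-455-3p were chosen after their values were seen. The groups, members and lists were chosen with earlier results of these data known. Alternatives were other scalings, pseudocounts and filters, use of all 3 deposited values, zeros as values, standard errors widened 2.5 times, the libraries compared only, a replicate block and leaving out each library. Figures were drawn with matplotlib 3.10.9. No miRNA sequences were used here.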

Additional observations from a re-analysis of the deposited data

Results flagged for a closer look

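The change from 0 to 24 h differed between control and the mean of moderate and severe hypoxia, by limma with Benjamini-Hochberg adjustment, for the 10 miRNAs given here, the largest called on both scales. Values are log2 differences in share of the listed total. 5 were higher in control. miR-126a-3p differed by 3.83, which rests on moderate hypoxia, where its change was -9.65 against -1.32 in control and -0.65 in severe hypoxia. miR-126b-3p differed by -9.13, with changes of -9.68, -0.61 and -0.48 in control, moderate and severe hypoxia. The paralogs thus dropped out in different groups, at 11.9 rpm for miR-126a-3p in moderate hypoxia and 6.38 rpm for miR-126b-3p in control at 24 h.

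miR-9-3p differed by 2.98 and miR-9-5p by 2.60. miR-138-5p differed by 2.98, with changes of 2.90, 1.21 and -1.37. miR-132-5p, an activity-induced miRNA of neurons, differed by 2.74 at 3.24 and 8.06 rpm in control, and its call in share was lost without 0 h library 2 or 24 h library 3 (adjusted p up to 0.161), and also without the 5 most abundant in the total.

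miR-196a-5p, from a Hox cluster, differed by -3.01, changing by -0.17 in control and by 4.02 and 1.66 in hypoxia. miR-301b-3p differed by -2.20, with changes of -0.90, 2.12 and 0.47. Its control mean was 0.889 rpm, and that of miR-489-5p was 1.31 rpm. The filter of 1 rpm used the mean of all 45 libraries, so miR-301b-3p passed it only through the hypoxia libraries. Its difference is thus given as a description only. Together miR-196a-5p and miR-196b-5p were at 4.31 and 2.87 rpm in control at 0 and 24 h. In control the values of these members thus rest on few reads. miR-489-5p differed by -1.21 and lost its call in share without 0 h library 2 (adjusted p = 0.0550). miR-101a-5p differed by -0.84 and lost it without 0 h library 1 or 24 h library 3 (adjusted p up to 0.0945).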

How the results depend on the processing

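Of 227 called values of named miRNAs, 59 were lost on leaving out 1 library, none reversed, and 14 held with standard errors widened 2.5 times. That setting left 9 calls over time as deposited, 1 at 4 h, 10 at 24 h, 1 at 24 h in share, and 3 arm ratios. It left 0 over time in share, at 4 h in share, at 8 and 12 h and against hypoxia, where limma gave 12, 2, 4 and 2 (8 h, deposited and share), 10 and 9 (12 h), and 4 and 12 at an unadjusted p under 0.05. Using all 3 deposited values gave 196 over time in share, 131, 118, 140 and 156 at 4, 8, 12 and 24 h as deposited, 97, 91, 128 and 154 in share, 94 and 110 against hypoxia and 60 arm ratios. Without the 24 h libraries the counts were 102 as deposited and 74 in share over time, and 16 arm ratios.

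At 4 h as deposited the count was 4 with the median of ratios, 4 without the 5 most abundant, 19 with a pseudocount of 10, 16 with zeros as values and 3 with the libraries compared only. At 8 h the first 2 of these gave 14 each as deposited, and zeros gave 20 in share. At 4 h in share zeros gave 9. Against hypoxia in share, zeros gave 71 and a mean of at least 10 rpm gave 30. Swapping the scale, chosen after seeing the data, moved the count between 10 as deposited and 5 in share at 4 h and between 29 and 13 at 8 h. Without the 5 most abundant, the 24 h listed total was 63.6% of 0 h.

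Leaving out 1 library gave 149 to 163 calls over time as deposited and 110 to 123 in share. The ranges were 2 to 15 and 1 to 8 at 4 h, 13 to 33 and 4 to 16 at 8 h, 45 to 66 and 35 to 51 at 12 h, and 76 to 98 and 74 to 87 at 24 h. Against hypoxia they were 27 to 48 and 37 to 50, for arm ratios 16 to 32, and for the listed total 50.7 to 55.4%. Replicate numbers were not used as pairs in the main fit. Correlations of 12 same-numbered pairs ran from -0.13 to 0.16, and 6 of 15 libraries correlated best with their own number. As most triplets hold an averaged value, these correlations cannot show whether the libraries were paired. The replicate block gave 4 calls at 4 h as deposited, 3 in share, and 8 at 8 h in share. It moved no other count by over 1.5 times. Depth limits miRNAs of a few rpm, most at 24 h.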
